A study of Mus musculus with 10 samples.

Results

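The dermal fraction (DF) was the cell population of mouse backskin that remained once the fluorescent follicle cells had been set aside, and 2 of the 10 arrays of the study were made from it. Its members here are the arrays whose titles name the dermal fraction. The study compared 5 populations sorted from the dermis of backskin at postnatal day 4 (P4) from mice that carried 2 transgenes, K14-H2BGFP and Lef1-RFP, with 2 arrays for each population. The keratin 14 promoter placed green fluorescent protein (GFP) in epithelial nuclei, and a fragment of the human Lef1 promoter placed red fluorescent protein (RFP) in dermal papilla cells and melanocytes. Backskins of 5 animals were pooled for a preparation, the fat was dissected away, and dispase removed the epidermis before collagenase released the cells. DF cells were RFP- and GFP- and were sorted after magnetic depletion of cells bearing CD34, CD45 or CD117. Dermal papilla (DP) cells went through the same depletion and were RFP-high and GFP-. Outer root sheath (ORS) cells were GFP-high and RFP-, matrix (Mx) cells were GFP-low and RFP-, and melanocytes (Mc) were RFP-positive and CD117-positive. DF was thus defined by what it lacked, and the sort placed in it any dermal cell with neither reporter and none of the 3 surface proteins.

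The dermis is built by fibroblasts, which secrete collagens, proteoglycans and elastic fiber proteins, and it is crossed by vessels, lymphatics and nerves. Blood vessels are lined by endothelial cells and wrapped by mural cells, which are pericytes on capillaries and smooth muscle on larger vessels. Schwann cells sheathe the nerves, and red cells that are not fully mature still carry RNA for globin and heme synthesis. CD34 is a surface protein of blood endothelium and of some fibroblasts, CD45 is found on all white blood cells, and CD117 on melanocytes and mast cells. In sorted bulk samples, fewer cells of a kind and less RNA per cell cannot be told apart.

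The values are MAS 5.0 signals of an Affymetrix MOE430A array on a linear scale, and differences are on the scale log2(signal + 50), so that changes of dim genes come out smaller than they were. The test (limma) covered the 8054 of 22626 probe-sets that reached 200 in both arrays of any population. The median signal of the 2 DF arrays was 82.3 and 88.0, within the range of 49.9 to 90.9 over all arrays, and 6325 and 6585 of their probe-sets reached 200. The arrays came from 2 chip lots, and each lot held 1 DF array. With 2 arrays against 2 a permutation test cannot reach 0.05, and the 8 other arrays are 4 different populations, so each adjusted p rests on a spread pooled over populations and probe-sets, and the number of arrays limits the precision. The DF arrays differed from each other in ways that touch the results. Replicate 2 held more signal of hair shaft and basal epithelial genes and of some pericyte genes, and replicate 1 more of melanocyte genes.

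All 4 markers that label the fraction were high on both DF arrays. Ccdc80, a secreted matrix protein of fibroblasts, had a signal of 3683 and 2893 in DF against 239.7 and 434.8 in DP and 15.8 to 61.2 elsewhere. Lyve1, a hyaluronan receptor of lymphatic vessels, read 1792 and 1279 against 1.7 to 37.4 on the other 8 arrays. Alas2, the first enzyme of heme synthesis in red cells, read 3462 and 4266 against 1.4 to 7.8. Rgs5, a regulator of G-protein signaling that marks pericytes, read 6184 and 6114 against 933.6 and 1983 in DP and 32.2 to 40.8 in the rest. For each of the 4 genes both DF arrays lay above all others, and DP came next for Ccdc80 and Rgs5. The markers were chosen with earlier results of these data known, so their high signal is a description and not a test. The 4 genes are known from 4 different cell kinds. Transcripts of the sort markers were low in DF or below the population sorted for them. Cd34 read 39.2 and 27.1 in DF, within the 8.2 to 107.5 of the other arrays, and Ptprc, which encodes CD45, read 3.6 and 9.2. Kit, which encodes CD117, read 346.7 and 152.0 in DF against 2989 and 2651 in Mc. Krt14, the gene whose promoter drove GFP, read 219.4 and 502.1 in DF against 4932 and 6500 in ORS.

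**Figure D1:**
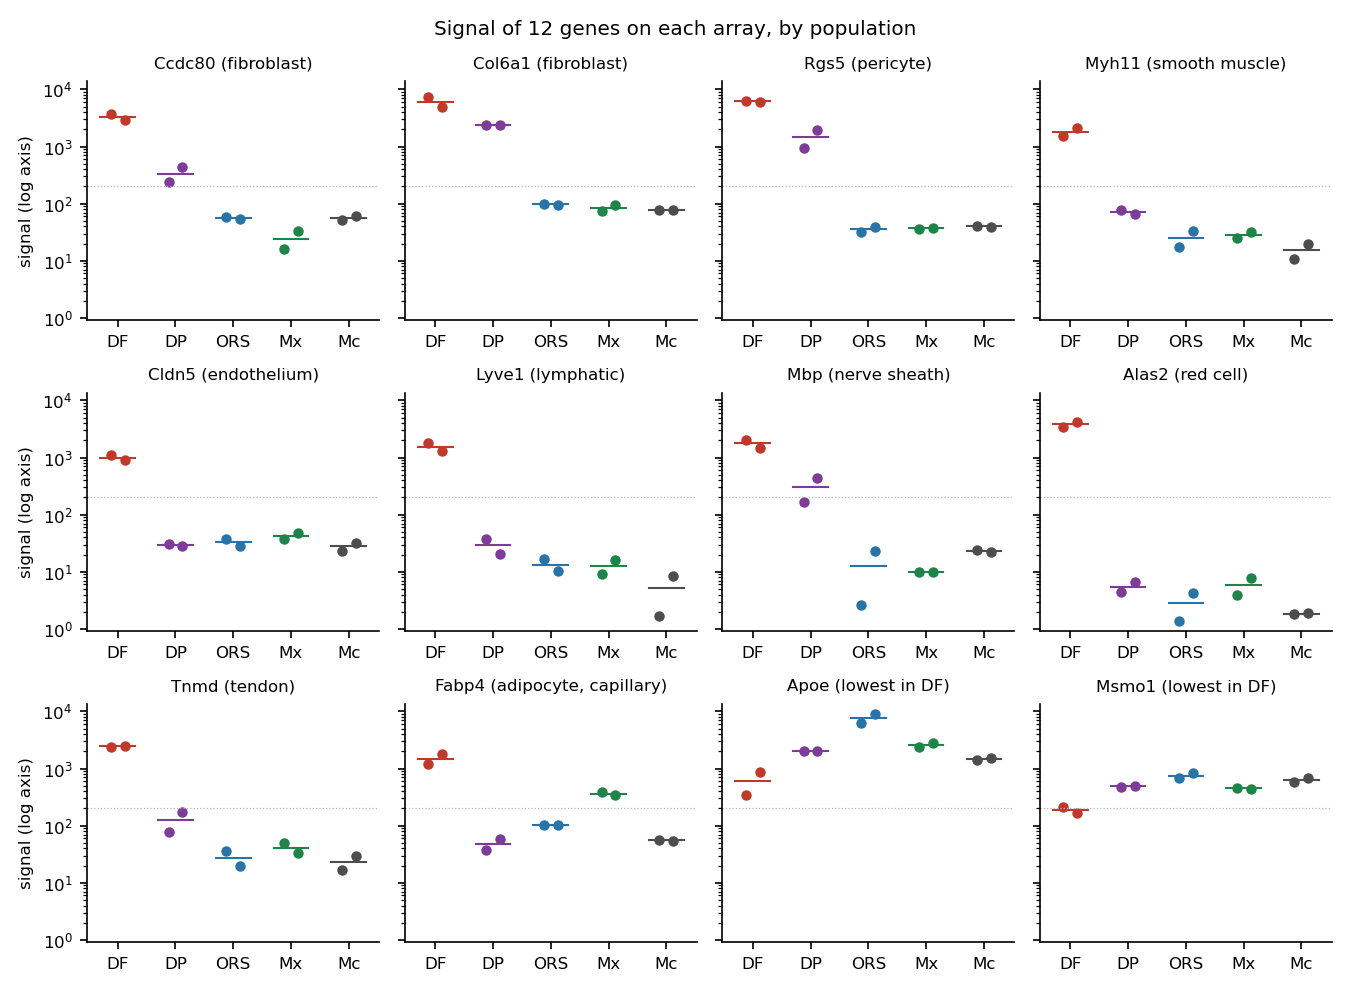
MAS 5.0 signal on a log axis for 12 genes in each of the 5 populations. Each point is 1 array and the horizontal line marks the signal of 200 that stood for expression. Alas2 and Lyve1 were near background outside DF, whereas Rgs5 and Ccdc80 also reached 200 in DP.

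Against the mean of the other 4 population means, more genes were higher in DF than lower. At an adjusted p under 0.05 (limma), 1637 probe-sets were higher, which is 20.3% of those tested, and 753 were lower, which is 9.35%. The higher probe-sets were 68.5% of the called ones, a share that was 49.7% after quantile normalization (1460 higher, 1477 lower), which moved the median difference of all tested probe-sets from 0.01 to -0.10. Without DF replicate 1 the lower count was 245 and without DF replicate 2 it was 497. Among the probe-sets of either direction, 874 were higher by at least 2-fold and 94 lower by at least 2-fold. A stricter count took those at least 2-fold above each of the 4 other populations that also passed at 0.05 (adjusted p) in each of these 4 contrasts, and it held 279 probe-sets, 3.46% of those tested. The same count below each of the others held 5, or 0.0621%. The 279 highest probe-sets named 209 genes, and 192 of the 279 probe-sets reached 200 in both DF arrays and in no other population. The population next to DF was DP for 186, ORS for 44, Mc for 32 and Mx for 17. By fold alone within the first chip lot, which holds both Mx arrays and 1 array of each other population, 258 of the 279 were at least 2-fold above all others. Within the second lot, which has no Mx array, 236 were.

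**Figure D2:**
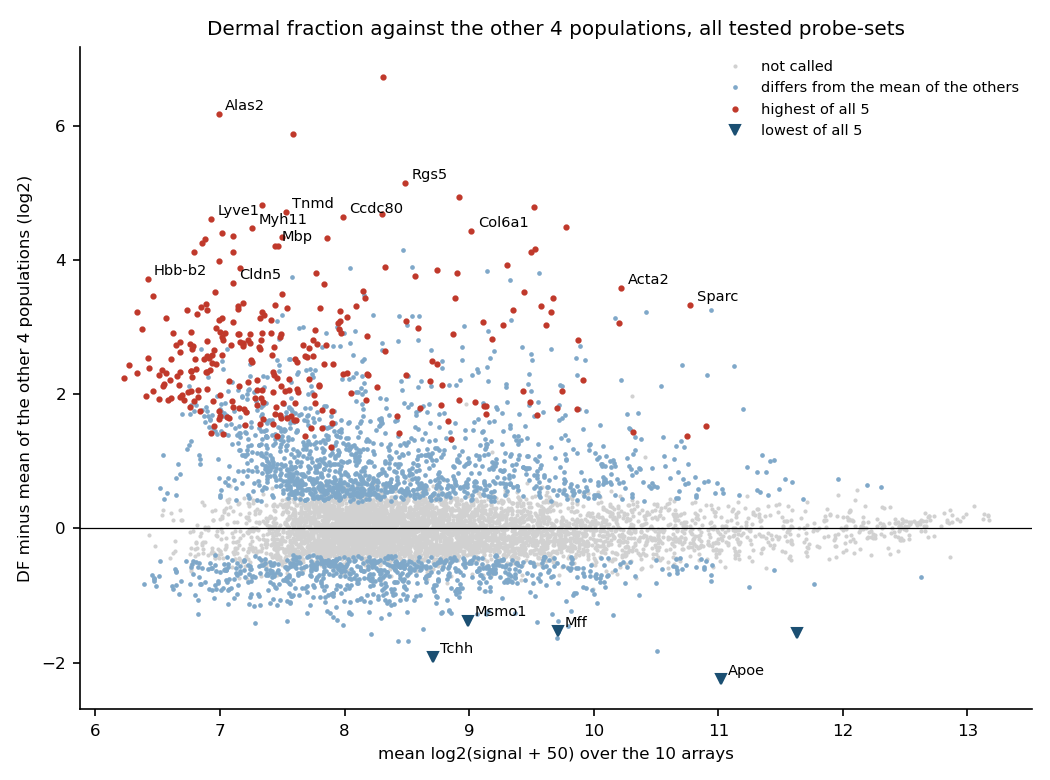
Difference between DF and the mean of the other 4 populations, log2(signal + 50), against the mean log2 signal for every tested probe-set. Points mark the probe-sets highest and lowest in DF of all 5 populations, and the 279 highest far outnumbered the 5 lowest.

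The genes that stood furthest above every other population included ones known from red cells, lymphatics, mural cells and tendon. Alas2 led, with a difference of 6.17 ± 0.14 (SE, 2 DF arrays against 8, limma adjusted p = 3.57e-11), and it was at least 6.12 above each population taken alone. After it came Lyve1, Tent5c (a poly(A) polymerase of red cell precursors), Myh11 (the myosin heavy chain of smooth muscle), Tnmd (a membrane protein of tendon) and Reln (a secreted glycoprotein of nerve and lymphatic tissue). Tent5c read 885.6 and 1211 in DF, Reln 2108 and 1473, and Aoc3, an amine oxidase of smooth muscle and fat, 1194 and 1877. Il6, the gene of interleukin-6, read 1282 and 949.3 in DF and 11.5 to 47.1 on the other 8 arrays, a difference of 3.98. Rsad2, an antiviral protein induced by interferon, read 1052 and 1362 against 35.3 to 118.3. Thbs4, a matrix thrombospondin of tendon and muscle, read 528.9 and 352.4 against 1.2 to 3.3. Igf2, the fetal insulin-like growth factor, read 1659 and 1666, with DP at 178.7 and 162.9. Further down the 20 leading genes were Gm13889 (1256 and 1220), Itgbl1 (609.6 and 818.8), Ptx3, a pentraxin of inflammation (700.4 and 641.0), and Ntrk2, a neurotrophin receptor (1128 and 1301). In all 20, as in all 279 highest probe-sets, the 2 DF arrays lay above the 8 others. The order and the lack of overlap follow from the rule of at least 2-fold above every population and are a description.

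Fibroblast matrix genes gave the most members called higher of the 27 lists, and DP held many of them too. Of 38 matrix genes on the array, 36 were tested, and 34 were higher and 1 lower in DF than in the mean of the other populations, against 21.1% higher and 8.99% lower over all 5253 genes tested. The median difference was 2.63 over the 38 genes and 0.06 over all genes on the array. A gene that reached 200 through DF alone had to differ, so the counts among tested genes lean towards higher. Counted without that filter, both DF arrays lay above all 8 others for 25 of the 38, against 11.7% of the 12393 genes on the array, and below all 8 for 1 of the 38, against 2.36%. Col6a1, a chain of the collagen VI microfibril, read 7355 and 4864 in DF and 2409 and 2423 in DP, a difference of 4.42 ± 0.16 (SE, limma adjusted p = 1.81e-09). Its partner chain Col6a2 read 8289 and 6498. Postn, the matricellular protein periostin, read 5049 and 4671 in DF, 740.6 and 1267 in DP and 1093 and 1624 in ORS. For these 3 genes both DF arrays lay above the 8 others, as for all genes highest in DF. The fibrillar collagens were closer to DP. Col1a2 read 12179 and 11643 in DF and 8061 and 7124 in DP. Col3a1 read 6123 and 6694 in DF and 5700 and 5938 in DP, so its difference of 2.44 reflects the other 3 populations. Sparc, which binds collagen, read 10997 and 11153, and Lox, which cross-links it, read 914.0 and 894.3 with a difference of 3.11.

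Set against DP alone, the matrix genes went both ways. Of the 36 tested, 19 were higher in DF than in DP, 7 were lower and 10 were not called, with a median difference of 0.95, where all genes gave 11.7% higher, 7.77% lower and a median of 0.03. Higher were Fbn2 (a fibrillin), Fn1 (fibronectin), Ogn, Fmod and Aspn (small proteoglycans) and Mfap4 (an elastic fiber protein) among others. Lower in DF than in DP were Vcan, Lum, Col15a1, Emilin1, Loxl1, Fbln1 and Fbln2. Vcan, the large proteoglycan versican, read 1019 and 892.7 in DF and 3889 and 4012 in DP. Other proteoglycans and fibulins of fibroblasts differed less. Lum, the proteoglycan lumican, read 148.2 and 158.2 in DF against 328.3 and 306.7 in DP, and its difference of 0.21 from the mean of the others did not pass the test. Dcn, the proteoglycan decorin, read 1326 and 1914 in DF and 4725 and 3052 in Mx, with a difference of 0.74 (limma adjusted p = 0.037). Fbln1, a fibulin of elastic fibers, was lower by a log2 difference of -0.66.

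The surface and secreted proteins of fibroblasts were shared more evenly between DF and DP. Of 36 on the array, 24 were tested and 20 were higher in DF than in the mean of the others, with a median of 1.35 over the 36. Over all genes tested 21.1% were higher. Thy1 and Dpt passed the filter through DF alone and so had to differ. Both DF arrays lay above all others for 9 of the 36, against 11.7% of all genes on the array. Against DP, 6 were higher, 6 lower and 12 not called, where 11.7% and 7.77% of all genes tested were higher and lower. Crip1, a small LIM protein, read 5569 and 5453 in DF and 722.9 and 1109 in DP. Thy1, a membrane glycoprotein of fibroblasts, read 1888 and 1448 in DF and 196.4 and 357.0 in DP, a difference of 3.31 from the mean of the others. Ccdc80, Dpt and S100a4 were also among the 6 that were higher in DF than in DP. The opposite was found for Pdgfra, the receptor for platelet-derived growth factor that marks dermal mesenchyme, with 609.8 and 658.0 in DF and 1451 and 1633 in DP. Sfrp2, a secreted Wnt inhibitor, read 99.9 and 141.5 in DF and 1466 and 1454 in DP. Islr read 165.1 and 140.3 in DF and 2956 and 2698 in DP.

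Genes of pericytes and smooth muscle were higher in DF than in the mean of the others where they could be tested. Of 31 on the array 21 were tested and all 21 were higher than in the mean of the others. Over all genes tested 21.1% were higher. The median difference was 2.27 over the 31. Myh11, Itga7, Kcnj8, Gucy1a1, Gucy1b1, Actg2 and Vtn passed the filter through DF alone and so had to differ. Both DF arrays lay above all others for 23 of the 31, against 11.7% of all genes on the array. Of the 31, 15 were among the genes highest in DF, as were 191 of all 5253 genes tested. Against DP, 19 were higher, where 11.7% of all genes tested were, and 2 were not called, with a median of 1.83. Myh11 read 1509 and 2092 in DF and 76.9 and 65.0 in DP, a difference of 4.47 ± 0.16 (SE, limma adjusted p = 1.67e-09). Mylk, the kinase that starts smooth muscle contraction, read 4226 and 4157 in DF and 766.6 and 949.6 in DP. Acta2, smooth muscle actin, read 8748 and 8536 in DF, 1593 and 2576 in DP and 1938 and 2614 in ORS. In these 3 contractile genes DF did not overlap any other population, as in all genes highest in DF. Myl9, a myosin light chain, read 3611 and 4221 in DF. Tagln, an actin-binding protein of smooth muscle, read 2556 and 3515 in DF and 1293 and 1666 in ORS. Pericyte receptors varied more between the DF arrays. Pdgfrb read 882.7 and 2467, Notch3 1746 and 4197, and the potassium channel Kcnj8 429.7 and 1005, each higher in DF replicate 2. For Pdgfrb DF overlapped DP, which read 759.7 and 1050, and DF was not called against DP. All 4 tested probe-sets of Rgs5 were higher in DF, by 2.91 to 5.14. Not all members were highest in DF. Cspg4, the pericyte proteoglycan NG2, read 710.9 and 726.5 in DF and 716.5 and 973.1 in ORS. Smtn, a protein of contractile smooth muscle, was lower in DF (398.9 and 293.0) than in ORS (447.1 and 739.1), with a difference of -0.67 (limma adjusted p = 0.049), and Steap4 overlapped ORS and DP. Des, the intermediate filament desmin, was dim in DF at 64.9 and 95.9.

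Promoters are shown for the genes that stand for the mural and the red cell groups. Serum response factor binds the CArG box, a sequence of smooth muscle promoters, and GATA factors bind AGATAA in red cell genes. Windows of 250 bases before to 50 bases after the gene start were taken from RefSeq (GRCm38.p6) and searched on both strands. The CArG box was searched for without mismatches, so variants of it were not counted. It was in 535 of 32851 windows (1.63%). Of the 15 mural genes highest in DF, Myh11, Tagln, Actg2 and Itga7 had no window and were not searched. The other 11 genes had 12 windows, of which 1 held the box. That window is the one of Myl9, on the plus strand at chr2:156775214-156775513, where the capitals mark a match that starts 161 bases before the gene start. AGATAA was in 3672 windows (11.2%). It was in the Alas2 window, on the plus strand at chrX:150547167-150547466, where the capitals mark its reverse complement starting 86 bases before the gene start, and was not in the window of Bpgm, another red cell gene. The same letters were also in 1 of the 12 mural windows, that of Rgs5. Of the 5 red cell genes highest in DF 2 had a window, and neither window held the CArG box. A match is a description of the letters and not a measured binding site.
Myl9: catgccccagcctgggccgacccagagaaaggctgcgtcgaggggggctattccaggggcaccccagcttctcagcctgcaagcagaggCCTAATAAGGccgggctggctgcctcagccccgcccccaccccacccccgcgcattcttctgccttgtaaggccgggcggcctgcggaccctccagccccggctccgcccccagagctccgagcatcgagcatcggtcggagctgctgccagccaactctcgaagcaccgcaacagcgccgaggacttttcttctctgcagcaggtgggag
Alas2: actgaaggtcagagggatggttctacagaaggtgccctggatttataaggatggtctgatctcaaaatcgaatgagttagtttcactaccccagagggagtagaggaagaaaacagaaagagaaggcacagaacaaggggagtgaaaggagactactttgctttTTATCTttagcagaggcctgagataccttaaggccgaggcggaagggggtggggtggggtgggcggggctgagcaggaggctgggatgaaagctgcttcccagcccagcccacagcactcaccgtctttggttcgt

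Blood endothelial genes were higher in DF although CD34-bearing cells had been depleted, but most of them had a low signal. Of 35 on the array, 11 were tested, 9 were higher and the median difference over the 35 was 1.10. Over all genes tested 21.1% were higher. Cldn5, Esam, Kdr, Cdh5 and Egfl7 passed the filter through DF alone and so had to differ. For 23 of the 35 both DF arrays lay above all 8 others, against 11.7% of all genes on the array. On both DF arrays 22 of the 35 were under 200. Cldn5, the tight junction protein of endothelium, read 1097 and 900.7 in DF and 23.4 to 47.4 elsewhere, a difference of 3.66 ± 0.14 (SE, limma adjusted p = 2.4e-09). Kdr, the main receptor for vascular endothelial growth factor, read 1007 and 658.4 in DF with DP next at 114.8 and 102.5. Esam, an endothelial adhesion molecule, read 704.2 and 1039. These 3 genes were among the highest in DF, and like all of those had no overlap between DF and the rest. Cdh5, the cadherin of endothelial junctions, read 283.5 and 211.2 against 28.8 to 51.7, a difference of 1.80. Pecam1 (CD31) read 214.3 and 174.6 in DF against 6.9 to 32.4 and was not tested, since 1 DF array was under 200. The receptor Tie1 was in the same position, with 229.7 and 182.7 against 0.6 to 1.0. Vwf, the clotting factor of larger vessels, was near background in DF at 12.3 and 11.2. Sox18, a transcription factor of vessels, was higher in DP (1469 and 1798) than in DF (798.2 and 644.4).

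Lymphatic genes were also higher in DF. All 8 tested of 10 on the array were higher in DF than in the mean of the others, with a median of 1.61 over the 10. Over all genes tested 21.1% were higher. Lyve1, Reln, Stab1, Flt4 and Foxc2 passed the filter through DF alone and so had to differ. Both DF arrays lay above the rest for 8 of the 10, against 11.7% of all genes on the array. Lyve1 differed by 4.61 ± 0.16 (SE, limma adjusted p = 1.67e-09). Flt4, the receptor for lymphatic growth factors, read 1080 and 780.3 in DF and 40.9 to 79.4 on the other arrays. Stab1, a scavenger receptor of sinusoidal and lymphatic endothelium, read 630.8 and 482.8. Foxc2, a regulator of lymphatic valves, read 207.1 and 200.7. Prox1, the factor that fixes lymphatic identity, read 124.7 and 77.2 in DF and was not tested.

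Nerve sheath genes were divided between DF, DP and Mc. Of 24 on the array 16 were tested and 9 were higher in DF, with a median of 0.85 over the 24. Over all genes tested 21.1% were higher. Mbp, Cryab, Kcna1 and Cadm4 passed the filter through DF alone and so had to differ. Both DF arrays lay above all others for 10 of the 24, against 11.7% of all genes on the array. The members with the largest differences are known from myelin. Mbp, myelin basic protein, read 2054 and 1491 in DF, 169.6 and 442.8 in DP and 2.6 to 23.8 elsewhere, a difference of 4.21 ± 0.25 (SE, limma adjusted p = 4.41e-08). Pmp22, a membrane protein of peripheral myelin, read 2241 and 1738 in DF and 682.2 and 849.8 in DP. Cnp, an enzyme of myelin-forming cells, read 1042 and 963.5. Other myelin genes of the list were dim and not tested, with 149.9 and 86.4 in DF for Mag, 108.5 and 35.7 for Ugt8a and 7.7 and 6.9 for Gjb1. Against DP, 6 genes were higher and 4 lower in DF, where 11.7% and 7.77% of all genes tested were. The lower ones were Sox10, S100b, Ncam1 and Fabp7. Sox10, the transcription factor of Schwann cells and melanocytes, read 306.7 and 255.8 in DF, 537.2 and 517.8 in DP and 1835 and 1894 in Mc.

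The red cell list had few members above 200. Of 30 on the array, 24 were under 200 on all 10 arrays and 5 were tested. All 5 were among the genes highest in DF, as were 191 of all 5253 genes tested. These 5 passed the filter through DF alone and so had to differ. They were Alas2, Hbb-b2, Slc25a37, Bpgm and Dmtn. Both DF arrays lay above all others for 12 of the 30, against 11.7% of all genes on the array. The median difference over the 30 was 0.28. Hbb-b2, an adult beta-globin, read 579.3 and 665.9 against 0.7 to 2.2, whereas its second probe-set was dim at 28.5 and 32.4. Slc25a37, which brings iron into mitochondria, read 415.3 and 855.1 in DF. Bpgm, which makes the phosphate compound that loosens oxygen from hemoglobin, read 507.9 and 621.8. Several globin probe-sets are assigned to more than 1 gene and were therefore kept out of the counts by gene. An alpha-globin probe-set read 13059 and 13208 in DF against 3.6 to 200.3, and a beta-globin one 10813 and 9971 against 118.6 to 575.3. No other array came near the DF values of these probe-sets. Transcription factors and a membrane protein of red cell precursors were under 200 in DF, with 138.3 and 117.2 for Tal1 (22.8 to 42.4 elsewhere), 36.3 and 72.1 for Gata1, 41.7 and 31.2 for Klf1 and 11.3 and 13.1 for Epb42 in DF. Of 15 heme synthesis and iron genes on the array 9 were tested, 4 were higher, 1 was lower and 4 were not called. Over all genes tested 21.1% were higher and 8.99% lower. Fech, the last enzyme of heme synthesis, read 1892 and 2318 in DF, a difference of 2.04, while Alad, an earlier enzyme of the pathway, differed by -0.44.

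A small tendon and cartilage group was also high. Of 12 genes on the array 5 were tested and 4 were higher. All 4 were among the genes highest in DF, as were 191 of all 5253 genes tested. Over all genes tested 21.1% were higher. Tnmd, Thbs4 and Acan passed the filter through DF alone and so had to differ. The median over the 12 was 0.46. Both DF arrays lay above the rest for 7 of the 12, against 11.7% of all genes on the array. Tnmd read 2418 and 2512 in DF against 76.0 and 173.1 in DP. Col11a1, a minor fibrillar collagen, read 3123 and 2392 in DF and 891.4 and 948.1 in DP. Acan, the cartilage proteoglycan aggrecan, read 658.7 and 576.9 with DP at 72.4 and 105.1. The defining factor of tendon, Scx, read 3.6 and 2.3, and Col2a1, the main collagen of cartilage, 46.3 and 20.1, so both were near background in DF. Of 22 fat cell genes 8 were tested, 4 higher and 2 lower, against 21.1% and 8.99% of all genes tested. Fabp4, a fatty acid carrier of fat cells and capillaries, read 1192 and 1771, while Adipoq, the hormone of mature fat cells, read 7.5 and 3.6.

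Most immune and muscle genes were under 200. None of 32 macrophage and dendritic cell genes was tested, since 31 were under 200 on all 10 arrays. C1qa, a macrophage complement gene, read 9.0 and 6.4 in DF, and Cd68 read 26.0 and 42.7. The mannose receptor Mrc1 was the member above 200 on a DF array, with 258.7 and 176.1. All 30 skeletal muscle genes were under 200 on all arrays, and none of the 9 granulocyte genes was tested. Of 15 lymphocyte genes 1 was tested, the T cell kinase Zap70, which read 386.8 and 383.0 in DF against 119.0 to 334.9 and was not called. Tpsb2, a mast cell tryptase, was lower in DF, with 32.6 and 11.6. The macrophage, lymphocyte and skeletal muscle lists still had their highest sums on the DF arrays. The macrophage genes summed to 1386 and 1544 in DF and to 697.7 to 1289 elsewhere. The lymphocyte genes summed to 783.9 and 727.9 in DF and to at most 672.1 elsewhere, and the skeletal muscle genes to 1128 and 982.2 in DF and to 540.8 to 907.1 elsewhere.

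**Figure D3:**
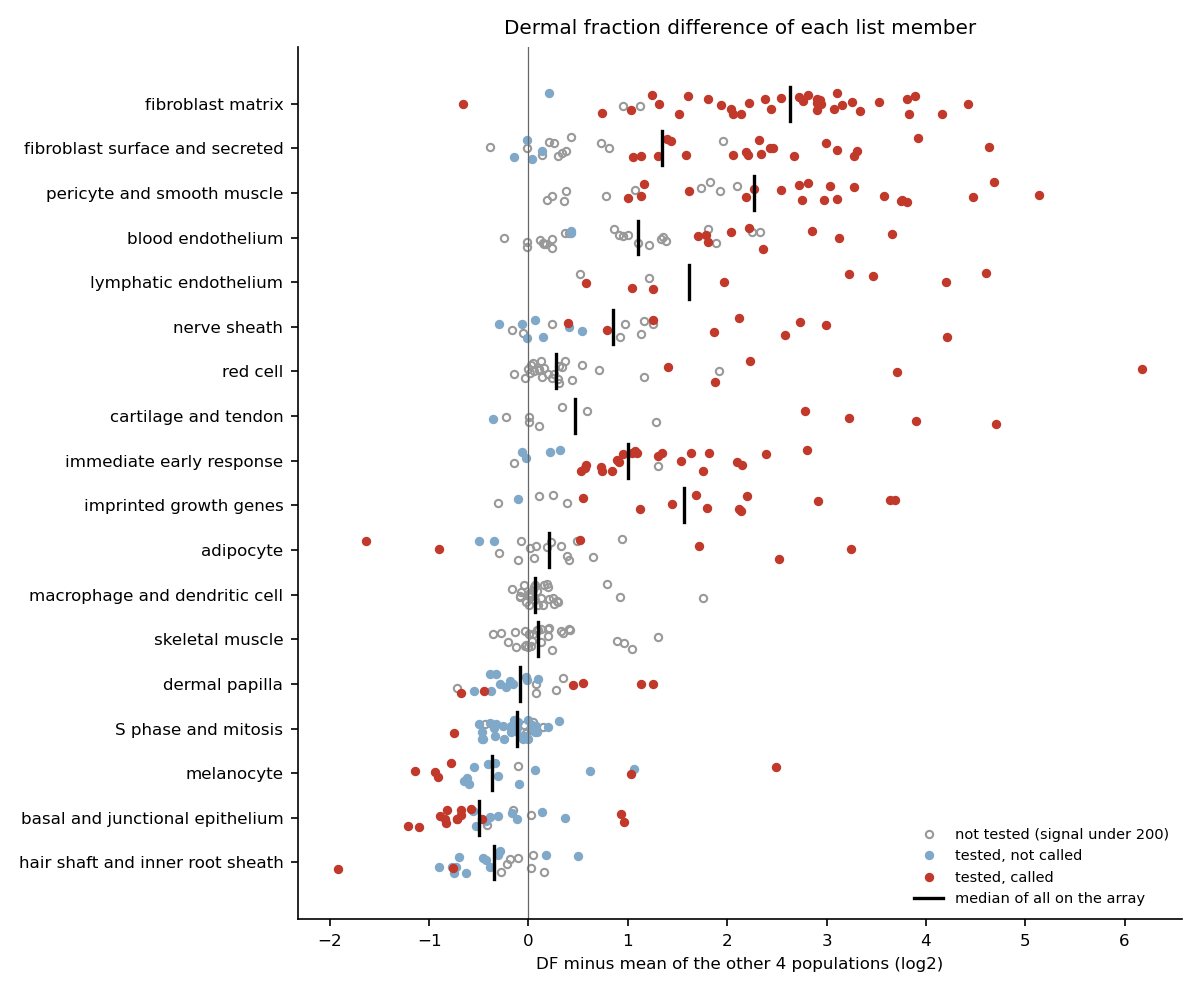
Difference between DF and the mean of the other 4 populations, log2(signal + 50), for the members of 18 gene lists on the array, 1 point per gene, with open points for genes under 200 and black bars for the medians. Tested mural and lymphatic genes all lay above 0, whereas the medians of the basal epithelium and hair shaft lists were -0.50 and -0.35. Some of the tested mural and lymphatic genes passed the filter through DF alone and so had to differ.

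**Figure D4:**
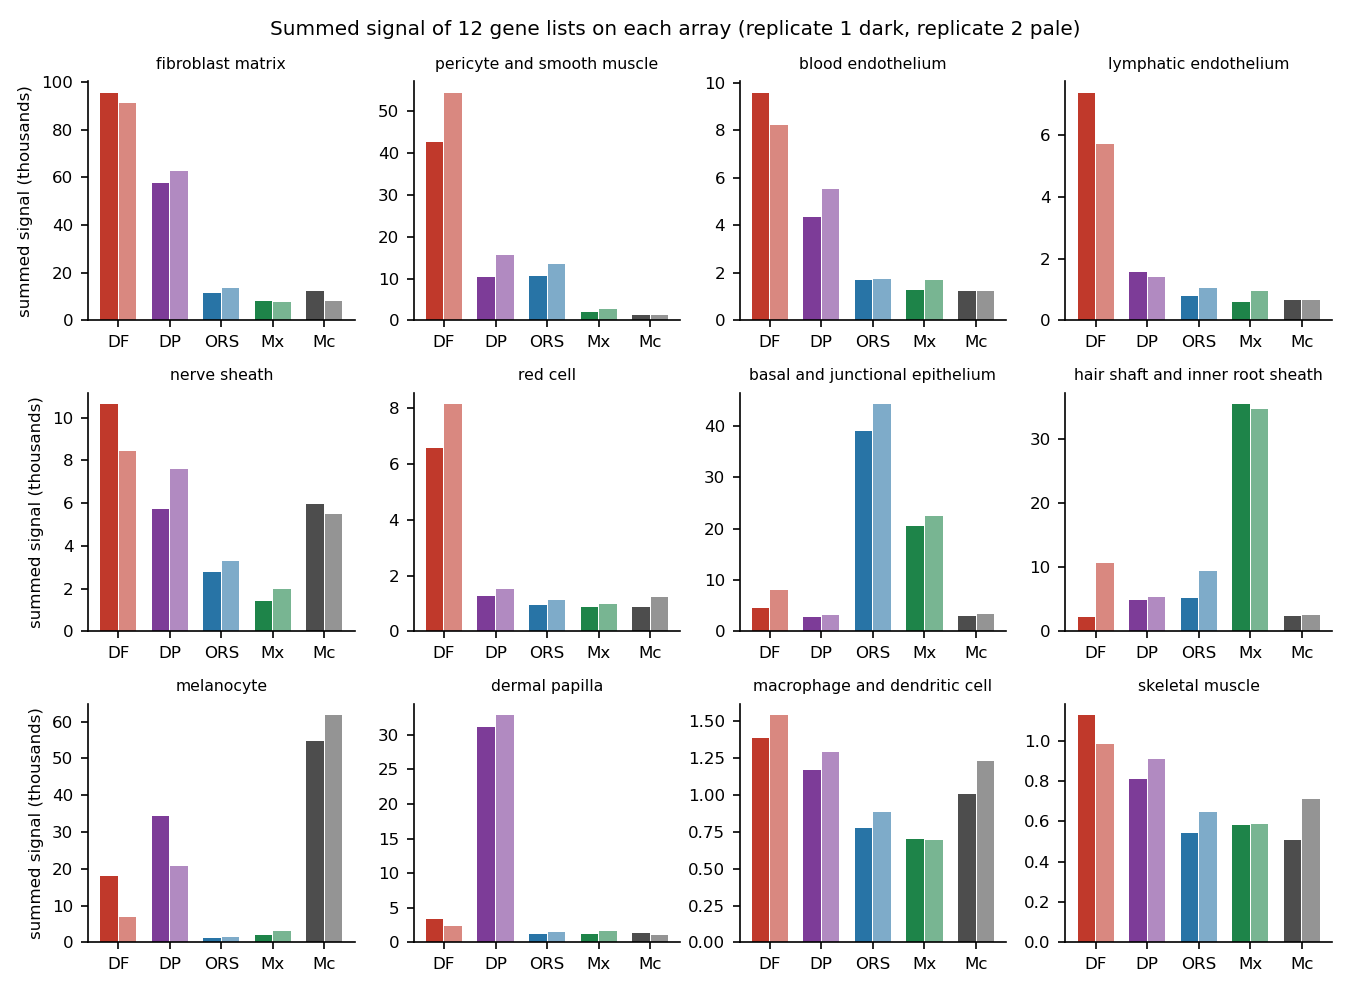
Summed signal of the genes of 12 lists on each of the 10 arrays, on a linear axis from 0. Sums for fibroblast matrix, mural, endothelial, lymphatic and red cell genes were highest on both DF arrays, and the hair shaft and melanocyte sums differed between the DF arrays.

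Summed over their lists, the genes of the fibroblast, vessel, nerve sheath and red cell kinds were higher on both DF arrays than on any other. Matrix genes summed to 95447 and 91077, mural genes to 42617 and 54329, nerve sheath genes to 10639 and 8433, and blood endothelial genes to 9584 and 8229. Red cell genes summed to 6559 and 8140 and lymphatic genes to 7363 and 5699. The next array was a DP array for each of these lists, with 62557 for matrix, 15615 for mural and 7597 for nerve sheath genes. Some sums rest largely on a few bright genes. In the nerve sheath list these were Mbp (2054 and 1491 in DF), Pmp22 (2241 and 1738) and Cnp (1042 and 963.5). In the red cell list Alas2 alone read 3462 and 4266. Sums are compared between arrays and not between lists, which differ in size.

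Groups of signaling and response genes had members higher in DF. Over all genes tested 21.1% were higher and 8.99% lower than the mean of the others, and 11.7% higher and 7.77% lower than DP. Both DF arrays lay above all others for 11.7% of all genes on the array. Of 28 immediate early genes on the array, which are induced within minutes by growth factors or stress, 26 were tested and 22 were higher, with a median of 1.00 among the tested, and both DF arrays lay above all others for 12 of the 28. Against DP 9 were higher, 2 lower and 15 not called, with a median of 0.34. The list summed to 54956 and 56718 in DF, 49406 and 52803 in DP and 13154 and 13815 in Mc. Klf2, a factor of endothelium under flow, read 1201 and 773.3 in DF and 392.1 and 258.6 in DP. Fos read 5357 and 6566, a difference of 0.74. Of 20 matrix proteases and their inhibitors 11 were tested, 10 were higher and 1 lower, and both DF arrays lay above all others for 9 of the 20. Adamts4 and Adamts1, which cleave aggrecan and versican, differed by 2.81 and 1.82, and Plat, tissue plasminogen activator, by -0.97. Of 13 complement genes 7 were tested and 4 were higher, led by the inhibitor Serping1, with 858.3 and 1436. Vtn passed the filter through DF alone and so had to differ, and both DF arrays lay above all others for 4 of the 13. Of 19 chemokines and cytokines 5 were tested and 4 were higher. Il6 passed the filter through DF alone and so had to differ, and both DF arrays lay above all others for 8 of the 19. Cxcl1, which draws neutrophils, read 2872 and 1528 in DF and 998.5 and 1470 in DP, and DF was not called against DP. Cxcl12 read 899.7 and 975.5, whereas Cxcl14 was lower than the mean of the others at 56.4 and 74.4. It read 1351 and 1587 in ORS and 634.8 and 315.4 in Mx, but 76.4 and 52.5 in DP and 51.1 and 27.4 in Mc. The second tested probe-set of Cxcl14 differed by -0.48 and was not called. Imprinted genes of fetal growth were mostly shared with DP. Of 16 on the array 12 were tested and 11 were higher than in the mean of the others, but against DP 1 was higher, 1 lower and 10 not called. Igf2 passed the filter through DF alone and so had to differ, and both DF arrays lay above all others for 5 of the 16. Meg3 read 5047 and 4802 in DF and 4611 and 4585 in DP.

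Few genes were lowest in DF. The 5 probe-sets named Apoe, Mff, Msmo1, Tchh and 1 set of several genes, which read 1633 and 1009 in DF and at least 2692 elsewhere. Apoe, the lipid carrier apolipoprotein E, read 343.2 and 866.7 in DF, 1434 and 1561 in Mc, 2059 and 2020 in DP and 6339 and 8888 in ORS, a difference of -2.24 ± 0.25 (SE, limma adjusted p = 1.3e-05). Msmo1, an enzyme of cholesterol synthesis, read 210.4 and 168.2 in DF and 437.3 to 820.1 on the other arrays. Mff, a factor of mitochondrial fission, read 319.9 and 302.2 against 671.7 to 1367, but its second tested probe-set differed by -0.23 and was not called. Tchh, the hair protein trichohyalin, read 35.2 and 196.7 against 233.3 to 1428. It was low on both DF arrays, but these differed from each other by 1.53 on the log2 scale. Other genes with large negative differences were Mgst1 (-1.83), a glutathione transferase, Wnt4 (-1.67), Scd1 (-1.64), which desaturates fatty acids, and Bmp7 (-1.43). Their mean signals were lower in DF than in each other population, as for Mgst1 with 520.4 in DF and 851.0 to 3390 in the others, but at least 1 of the 4 contrasts missed the rule for lowest.

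Markers of the 4 other populations were mostly not higher in DF than in the mean of the others. Of 22 dermal papilla genes on the array 17 were tested, and all 17 were lower in DF than in DP, with a median of -3.12. Several of the 17, among them Bmp4, Fst, Inhba, Trps1, Sox2 and Wif1, are in the DP signature that the study drew from these arrays. That signature required over 2-fold in DP against each other population, so the direction of these genes was largely fixed in advance. Crabp1, a retinoic acid carrier, read 81.8 and 74.6 in DF against 4370 and 4266 in DP. Against the mean of all 4 others, 4 of the 17 were higher and 2 lower, shares close to the 21.1% and 8.99% over all genes tested. Of 23 tested genes of the basal epithelium 2 were higher and 12 lower. Against DP alone 8 of the 23 were higher in DF and none was called lower, where 11.7% and 7.77% of all genes tested were. The basal list summed to 4492 and 8043 in DF, 2879 to 3306 in DP and Mc and 20515 to 44335 in ORS and Mx. Of 15 tested hair shaft and inner sheath genes 2 were lower by limma, 3 at an unadjusted p under 0.05, and none was higher at either level. Of 17 tested melanocyte genes 2 were higher and 4 lower. The higher ones were Dct and Ednrb, an endothelin receptor, the latter with 1976 and 1469 in DF and 1804 and 2582 in Mc. Against DP alone 1 of the 17 was higher and 10 were lower. The melanocyte list summed to 18038 and 6880 in DF and to 1168 to 3087 in ORS and Mx. For these lists the counts depended on the DF array used. Without DF replicate 1 the lower counts were 3 for basal epithelium and 8 for melanocytes. Without DF replicate 2 they were 15 for basal epithelium, 10 for the hair shaft and 0 for melanocytes (1 at an unadjusted p under 0.05). Of 32 tested genes of S phase and mitosis 1 was lower and none higher by limma, with 6 lower and 0 higher at an unadjusted p under 0.05. That mean hid an order among the populations. Against DP alone 15 of the 32 were higher in DF and none was called lower, with a median of 0.69, and the list summed to 16721 and 15147 in DF, 8917 to 12201 in DP and Mc and 25500 to 35282 in ORS and Mx. Mki67, a marker of cycling cells, read 929.0 and 729.9 in DF.

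The spread between the DF arrays was widest for genes of the hair shaft and of pigment. Krt31, a hair keratin, read 54.2 in replicate 1 and 892.3 in replicate 2, a log2 difference of 3.18. Krtap8-1, Krt33a, Krt71 and Krt35 followed with 2.79, 2.71, 2.55 and 2.42. Krt35 read 397.8 and 2338 in DF and 6239 and 5596 in Mx. The 22 hair shaft genes summed to 2226 in DF replicate 1 and 10621 in DF replicate 2, against 35410 and 34540 in Mx. The melanocyte genes went the other way. Tyr, the key enzyme of melanin synthesis, read 1001 in replicate 1 and 225.9 in replicate 2, and Dct, another one, 5120 and 1512. The 18 melanocyte genes summed to 18038 and 6880 in DF, against 54668 and 61800 in Mc and 34354 and 20644 in DP. The basal epithelial genes summed to 4492 and 8043, against 39091 and 44335 in ORS. The part of hair shaft or melanocyte RNA in the differences between DF and the other populations was not tested. Without 1 or the other DF array, and without each other array in turn, the groups that were high in DF had 33 to 34 higher genes for fibroblast matrix, 21 to 24 for mural cells, 9 to 12 for blood endothelium, 6 to 8 for lymphatics, 7 to 9 for nerve sheath and 5 to 6 for red cells.

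**Figure D5:**
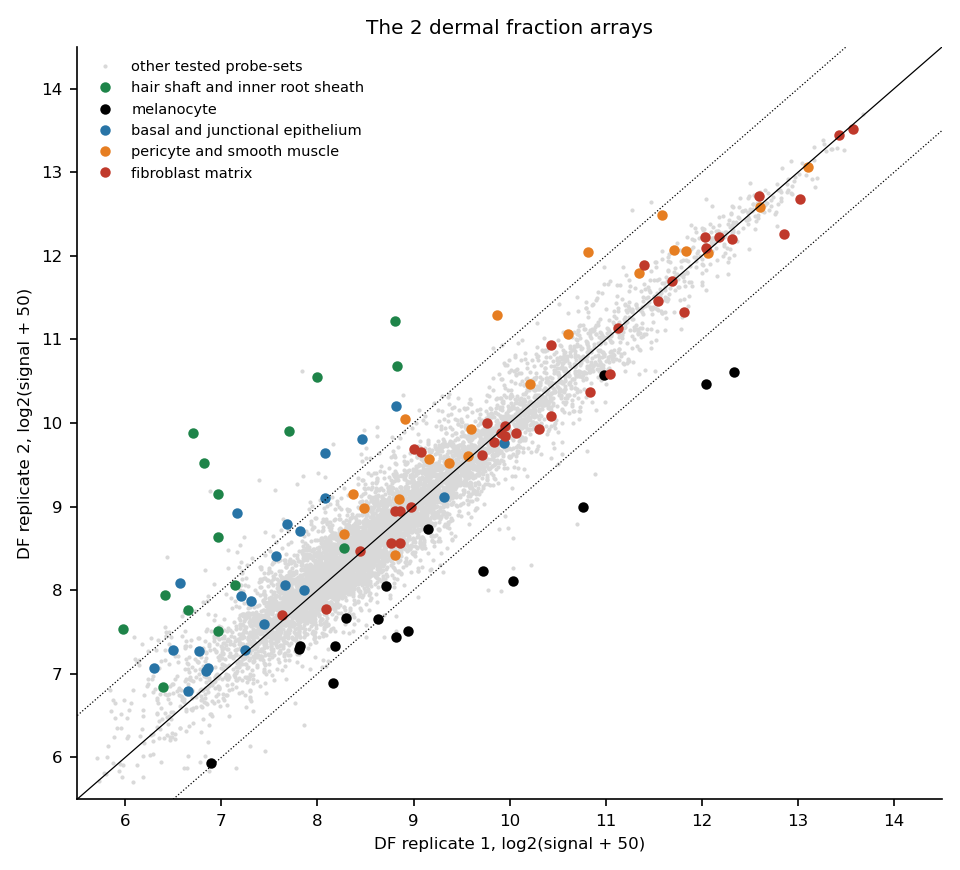
Signal of DF replicate 2 against DF replicate 1 for the tested probe-sets, both as log2(signal + 50), with dotted lines at a 2-fold difference. Hair shaft genes lay above the diagonal and melanocyte genes below it, while fibroblast matrix genes lay within the dotted lines.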

How the data were processed

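The deposited table gives an intensity on a linear scale, the MAS 5.0 signal that the authors computed and scaled for each array after 1 round of RNA amplification. Array groups came from the sample titles. Replicates were described as independent datasets, and p-values measure only the spread between these arrays. Of 22626 probe-sets (64 controls left out), 20380 were assigned 1 gene, 691 several and 1555 none. Where a gene had several probe-sets, the one brightest on average (log2 scale) stood for it. Probe-sets at 200 or more in both arrays of a population entered 1 fit of all 10 arrays with a mean per population (limma 3.58.1, R 4.3.3), after log2(signal + 50), and DF was compared with the mean of the other 4. P-values were adjusted by Benjamini-Hochberg over 8054 probe-sets. The fit had 5 residual and 7.46 prior degrees of freedom and was tested on simulated data. Members and gene lists were chosen with earlier results of these data known, and lists were counted, not tested. Named genes were the 20 furthest above and below all other populations, the defining and up to 5 leading called members of each list, the markers, and the 10 that differed most between the DF arrays. Other genes were chosen after their values were seen. Alternatives were other pseudocounts, bounds, fold limits, normalizations and blocks, and each array left out. Present calls and Robust Multi-Chip values were not used. Python 3.11.15, numpy 2.4.6, pandas 2.3.3 and matplotlib 3.10.9 read the tables and drew the plots.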

Additional observations from a re-analysis of the deposited data

How the results depend on the processing

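The count of probe-sets lowest in DF, 5, was 9 at a pseudocount of 16, 11 at a pseudocount of 1, 8 at a signal bound of 100, 10 after quantile normalization, 19 at a fold limit of 1.5 and 0 at a limit of 3. The count highest in DF, 279, was 461 at a limit of 1.5 and 146 at 3. Without the filter 3094 were higher, and after quantile normalization 1477 were lower. Leaving out 1 array at a time gave 1298 to 1876 higher, 245 to 977 lower, 233 to 330 highest and 4 to 9 lowest. Blood endothelial genes called higher were 17 at a bound of 100 and 24 with no filter, where nerve sheath had 14 and red cells 11. With the mean of all probe-sets of a gene, the median was 2.47 for fibroblast matrix and 0.54 for nerve sheath. The sign of Crabp1 turned at pseudocounts of 16 (0.029) and 1 (0.84), that of Rspo2 at a pseudocount of 1 (0.83) and that of Tyr without DF replicate 2, with a range over left-out arrays of -1.06 to 0.87. The cause of these changes was not tested. Same-numbered replicates correlated between -0.05 and 0.34 in their deviations, so no pairing was assumed, and with the replicate block all 150 named genes kept their call. Of the named genes, 128 kept it without DF replicate 1 and 127 without DF replicate 2, 142 after quantile normalization and 147 with the chip lot as a block. Comparisons within a chip lot were chosen after seeing the data.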

Other observations

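Further gene groups outside the lists above were gathered after the values had been seen and are given as counts, with no test of the groups. Of 17 tested genes of sterol synthesis, 0 were higher in DF and 8 were lower by limma (0 and 9 at an unadjusted p under 0.05), among them Msmo1 (-1.37), Dhcr7 (-0.86), Fdft1 (-0.85) and Idi1 (-0.66), with a median of -0.45. Over all genes tested 8.99% were lower. Both DF arrays lay below all 8 others for 5 of the 19 on the array, against 2.36% of all genes on the array. Hmgcs1, the entry enzyme of the pathway, differed by -0.33 and was not called. Of 28 interferon response and antigen presentation genes on the array, 9 were tested and all 9 were higher by limma, where 21.1% of all genes tested were, with a median of 1.92 among the tested. Rsad2 and Isg20 passed the filter through DF alone and so had to differ. Both DF arrays lay above all 8 others for 11 of the 28, against 11.7% of all genes on the array. Ifit1, Ifit3, Oas1a, Oas2 and Mx1 were under 200 on all arrays, and Ifitm1 was brighter in DP (1070 and 1133) than in DF (387.5 and 863.7). Irf1, a transcription factor induced by interferon, read 1115 and 1637, and Isg20, an antiviral nuclease, read 393.5 and 460.1. Of 9 caveola genes on the array, the coat proteins of the small membrane pits of endothelial, mural, fat and fibroblast cells, 6 were tested and all 6 were higher, and both DF arrays lay above all others for 5 of the 9. The shares over all genes were 21.1% of those tested and 11.7% of those on the array. Cavin3 and Ehd2 passed the filter through DF alone and so had to differ. Cavin2 overlapped Mc, with 1585 and 1427 in DF and 2052 and 1370 in Mc. Cav1, the main coat protein, read 4092 and 3743 in DF, a difference of 3.25.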
